A study of Mus musculus with 4 samples.

Results

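Keratin-associated proteins are the small structural proteins that fill the space between the keratin filaments of the hair shaft. They are made late, by cells of the shaft cortex and cuticle that have left the growing hair bulb, and disulfide bonds tie them to the hair keratins and to each other. The family is usually divided by composition into cysteine-rich proteins and glycine-tyrosine-rich proteins, and its genes lie in clusters in which neighbours are often copies of each other. Because hair shafts are built only while a follicle is in its growth phase (anagen), RNA of these genes in whole skin is known to rise and fall with the hair cycle.

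The members were all rows of the deposited gene table whose gene name starts with Krtap, 57 of 47725 rows. They were grouped by the number after Krtap, which names the subfamily. The study measured polyadenylated RNA from frozen, pulverized skin of C57BL/6J mice aged 17 weeks in 4 libraries. The cKO libraries, numbered 2 and 3 in their titles, are the conditional knockout group; the series title sets the letters K5 before the floxed Pp6 allele for these mice, and no label spells out what K5 stands for. The control libraries, also numbered 2 and 3, carry the PP6fl/fl label, so the floxed allele is shared by both groups. Pp6 is the catalytic subunit of protein phosphatase 6, whose gene symbol is Ppp6c. Whether each library is a different mouse is not stated, so the p-values below cover only variation from library to library, be it technical or between mice. What the numbers 2 and 3 mark is not stated either. Below, cKO2, cKO3, control2 and control3 name the libraries by group and number.

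The libraries held 15837136 counts in cKO2, 17459413 in cKO3, 23407731 in control2 and 22334208 in control3. Levels are given as CPM, counts scaled to library size, after TMM scaling, on which 1 count was worth 0.0416 to 0.0636 CPM. Ppp6c had 62.1 and 50.1 CPM in cKO2 and cKO3, against 57.8 and 61.8 CPM in control2 and control3. Its log2 fold change was -0.09 ± 0.16 (SE) with an adjusted p of 0.810 in edgeR's quasi-likelihood test, so the gene-level count in whole skin did not separate the groups and gave no check of their labels. In whole skin, fewer cells of a type and less RNA per cell cannot be told apart, and this holds for every level below.

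Krtap RNA was more abundant in both cKO libraries than in either control library, and within each genotype it was more abundant in the library numbered 2. The 57 rows together had 2363 and 1094 CPM in cKO2 and cKO3, against 509 and 95.4 CPM in control2 and control3. The groups did not overlap, but the libraries inside each group lay far apart: cKO2 was 2.16 times cKO3, and control2 was 5.33 times control3. The mean was 1729 ± 897 CPM in cKO skin and 302 ± 292 CPM in control skin (SD, n = 2 each), a ratio of 5.72. The ratio was 4.64 between the number 2 libraries alone and 11.5 between the number 3 libraries alone. It was 18.1 without control2 and 3.40 without control3. With 2 libraries in each group an exact permutation test cannot go below p = 0.333, so no test was made on the sums. As a share of all counts, Krtap rows took 0.235% and 0.105% in cKO2 and cKO3, against 0.0523% and 0.00969% in control2 and control3.

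**Figure D1:**
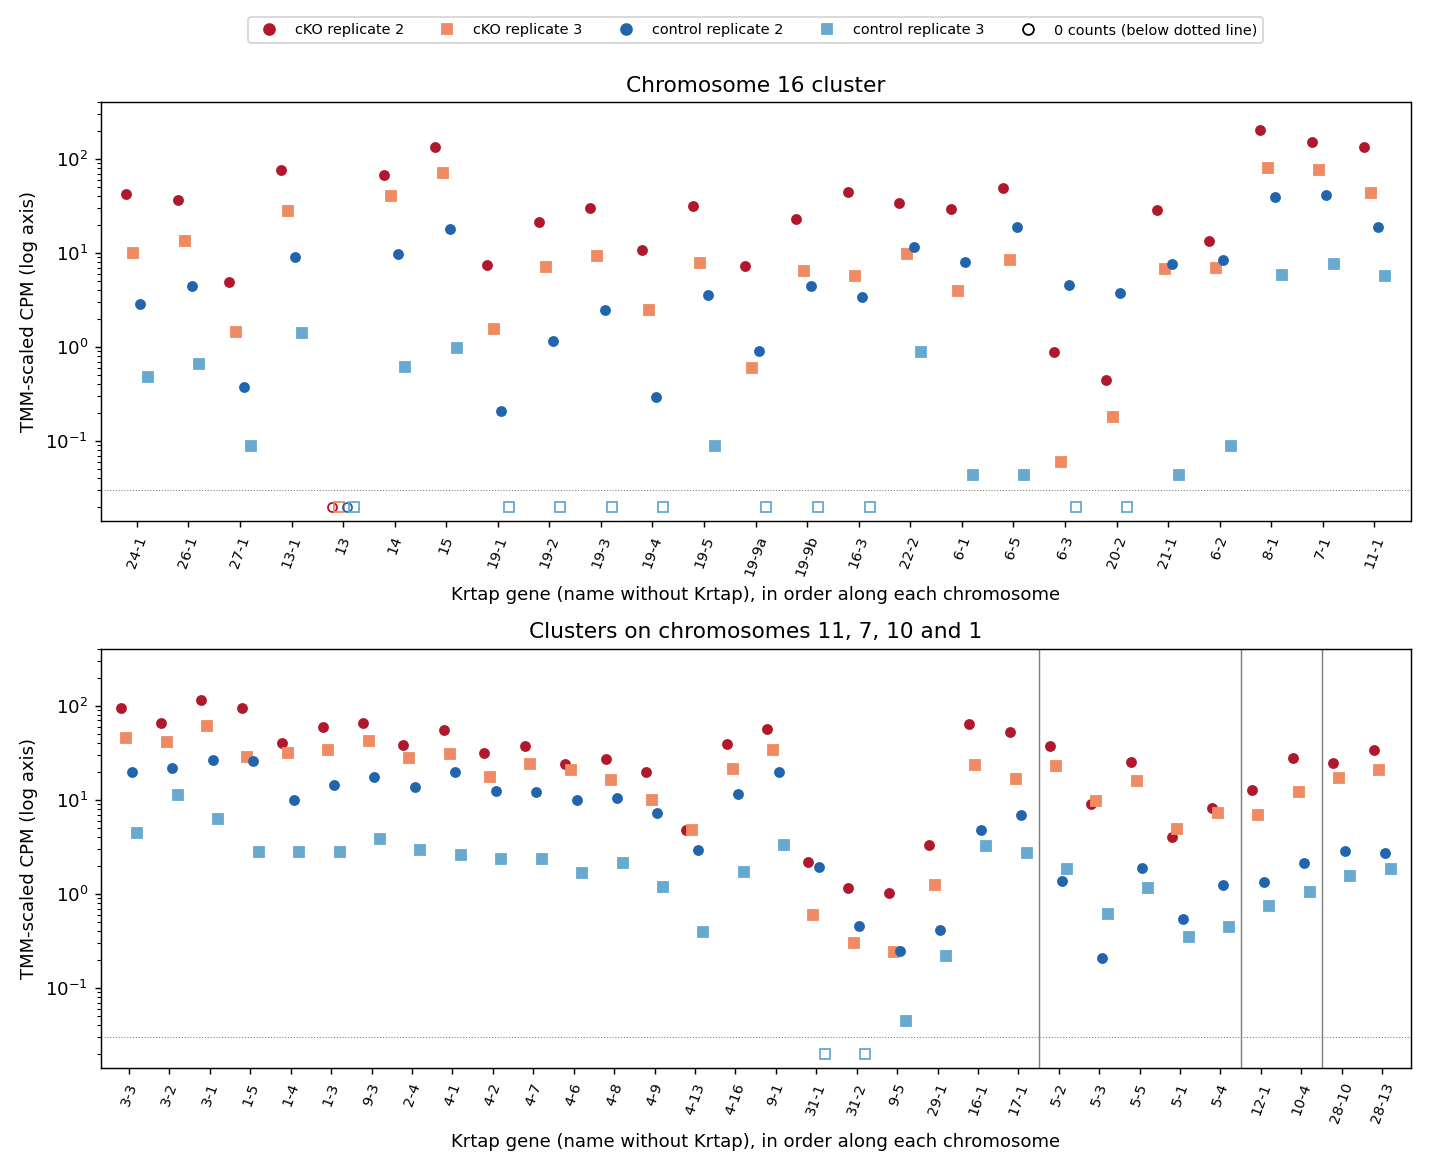
Each Krtap gene's TMM-scaled level in CPM (log axis) in the 4 libraries, with cKO libraries left of control libraries and genes in chromosome order; open symbols under the dotted line are 0 counts. Summed over the family the level was 2363 and 1094 CPM in cKO2 and cKO3, against 509 and 95.4 CPM in control2 and control3, and cKO2 was the highest and control3 the lowest library for 48 of the 53 genes tested.

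Of the 57 members, 53 passed the low-count filter and entered the test across 17440 genes. Krtap9-5, Krtap20-2 and Krtap31-2 had counts but too few to be tested, and Krtap13 had 0 counts in all 4 libraries, where 3 counts would amount to 0.125 to 0.191 CPM. The genotype test called 3 members higher in cKO skin and 0 lower at an adjusted p under 0.05, where 1.09% of all genes were called in either direction, 0.74% higher and 0.35% lower. At an unadjusted p under 0.05 the count was 29 of 53 members, beside 20.0% of all genes in either direction and 10.3% higher. DESeq2 called 29 members higher, edgeR's exact test 25 and limma voom 2, where they called 6.14%, 5.57% and 0.757% of all genes higher. The median log2 fold change was 2.72 over the members tested and -0.001 over all genes tested. Krtap6-3 alone among the tested members had a negative log2 fold change. Without control2 the test called 0 members, where 0.0% of all genes were called, and 53 of 55 members had an unadjusted p under 0.05, where 10.2% of all genes did. Without control3 it called 0 members, where 0.0% of all genes were called, and 37 of 56 had an unadjusted p under 0.05, where 8.82% of all genes did. Without cKO2 it called 9 members and 8.99% of all genes, and without cKO3 it called 12 members and 5.39% of all genes. In the authors' deposited table, 38 members had an FDR under 0.05 with higher values in cKO skin and 0 with lower ones, where 5.04% of the genes tested here were higher by that rule.

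The 3 genes called higher are cysteine-rich members from 2 chromosomes. Krtap5-2 had 37.1 and 23.2 CPM in cKO2 and cKO3, against 1.37 and 1.85 CPM in control2 and control3. Its log2 fold change was 4.22 ± 0.37 (SE), with an adjusted p of 0.0428 in edgeR's quasi-likelihood test. Its cKO libraries were both far above its control libraries, and here control3 was not the lowest library. Krtap5-5 had 25.3 and 15.9 CPM in cKO2 and cKO3, against 1.91 and 1.15 CPM in control2 and control3, and its adjusted p was 0.0494 in the same edgeR test with a log2 fold change of 3.74 ± 0.43 (SE). Krtap28-13, on chromosome 1, had 34 and 21 CPM in cKO2 and cKO3, against 2.70 and 1.85 CPM in control2 and control3. Its adjusted p was 0.0476 in the edgeR test with a log2 fold change of 3.59 ± 0.38 (SE). With limma voom the adjusted p was 0.0494 for Krtap5-2, 0.0534 for Krtap5-5 and 0.0528 for Krtap28-13, with log2 fold changes of 4.18, 3.73 and 3.56, so 1 of the 3 calls was shared; its other call was Krtap5-3, with an adjusted p of 0.0496. Between the numbers of a genotype these 3 genes differed by ratios of 1.67 or less, the widest being control2 over control3 for Krtap5-5. Reads may be shared between copies: the share of 50-base windows of its exons that also occur in another gene's was 28.6% for Krtap5-2, 36.3% for Krtap5-5 and 7.10% for Krtap28-13. Of the 57 members, 17 shared no such window and 14 shared more than 20%.

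The libraries ordered the members in only 2 ways. For 45 of the 57 members both cKO libraries lay above both control libraries, an order that 25.1% of all genes tested showed. For 11 of the 57 both number 2 libraries lay above both number 3 libraries. That share was close to the 18.5% of all genes tested that showed this order. The remaining member was Krtap13, at 0 throughout. The 11 were Krtap6-1, Krtap6-2, Krtap6-3, Krtap6-5, Krtap9-5, Krtap19-9a, Krtap20-2, Krtap21-1, Krtap22-2, Krtap31-1 and Krtap31-2. Of these, Krtap9-5, Krtap20-2 and Krtap31-2 were not tested. Among the members tested, cKO2 was the highest and control3 the lowest library for 48 of 53, beside 15.3% of all genes tested. Compared within a number, cKO was higher than control for 52 of the 53 tested members in the number 2 libraries, beside 49.7% of all genes tested, and for all 53 in the number 3 libraries, beside 49.3%. The gap between cKO and control was the larger one in the number 3 libraries for 45 of the 53, beside 48.9% of all genes tested. An interaction of genotype and number cannot be fitted with 4 libraries, so this difference in gap was not tested.

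The number was then tested in a fit that holds genotype and number together, which leaves 1 residual degree of freedom. The genotype test above had no term for number, so its errors and counts are not comparable with those of this joint fit. No Krtap gene passed an adjusted p of 0.05 for number in the joint fit, where 0.0% of all genes did. At an unadjusted p under 0.05 the count was 44 of 53 members, beside 12.8% of all genes in either direction and 6.22% of all genes higher in number 2. DESeq2 called 22 members higher in number 2, where it called 0.963% of all genes, and limma voom called 0. The median log2 ratio of number 2 over number 3 was 1.68 over the members tested and 0.014 over all genes tested. In 49 of the 53 the number 2 library was the higher one in both genotypes, beside 34.8% of all genes. Krtap11-1 had the smallest p of the members in this comparison. It had 134.0 and 43.3 CPM in cKO2 and cKO3, against 19.0 and 5.68 CPM in control2 and control3. Its log2 ratio of number 2 over number 3 was 1.68 ± 0.13 (SE), with an adjusted p of 0.233 in the edgeR quasi-likelihood test. The gene had a number ratio near 3 in each genotype, 3.09 in cKO and 3.35 in control, on top of a cKO level above the control level in each number. Krtap24-1 and Krtap17-1 followed with log2 ratios of 2.23 ± 0.24 and 1.52 ± 0.19 (SE) and adjusted p-values of 0.272 and 0.311 in the edgeR test.

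**Figure D2:**
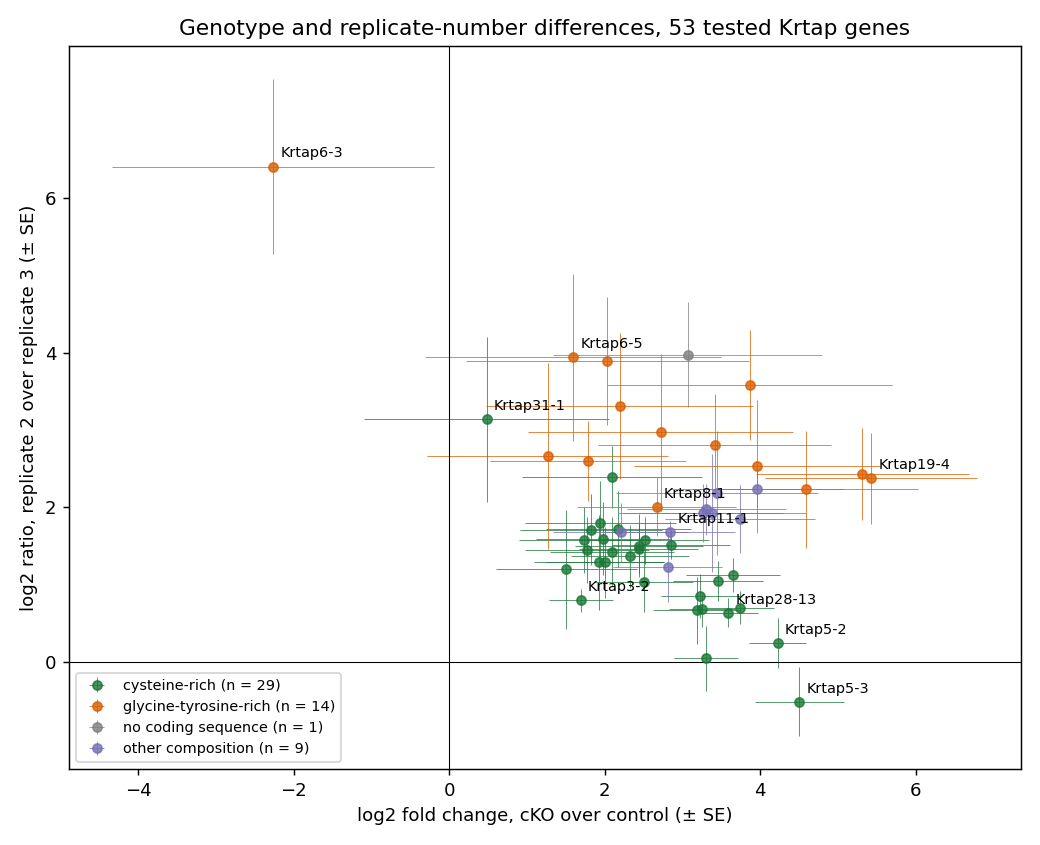
Log2 fold change of cKO over control (horizontal axis) against log2 ratio of number 2 over number 3 (vertical axis) for the 53 Krtap genes tested, with a colour for each composition class and bars of 1 SE. Horizontal bars come from the fit of genotype alone and vertical bars from the fit of genotype and number together, so their lengths cannot be compared. The Krtap5 and Krtap28 genes lie low and to the right, the Krtap6 genes lie high and further to the left, and the medians over all 53 genes were 2.72 for genotype and 1.68 for number.

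The subfamilies differed in how much of their variation followed genotype and how much followed the number. At the genotype end were the 5 Krtap5 genes of chromosome 7, whose human counterparts are cuticle proteins of the shaft with very high cysteine content. Summed, they had 83.8 and 61.0 CPM in cKO2 and cKO3, against 5.28 and 4.41 CPM in control2 and control3. The cKO mean was 15 times the control mean, while number 2 was 1.37 times number 3 in cKO and 1.2 times in control. Krtap5-3 had 9.10 and 9.73 CPM in cKO2 and cKO3, against 0.208 and 0.617 CPM in control2 and control3, and was the only tested member with a negative number ratio (log2 ratio -0.52 ± 0.45, SE). Krtap5-1 had 4.07 and 4.89 CPM in cKO2 and cKO3, against 0.540 and 0.352 CPM in control2 and control3. Its log2 fold change was 3.31 ± 0.41 (SE) with an adjusted p of 0.0525 in edgeR's quasi-likelihood test, but 60.6% of its 50-base windows also occur in another gene.

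The 2 Krtap28 genes of chromosome 1 were close to that pattern, with 58.8 and 38.3 CPM in cKO2 and cKO3 against 5.57 and 3.39 CPM in control2 and control3. Chromosome 10 holds Krtap10-4 and Krtap12-1, from subfamilies whose human counterparts are also cuticle proteins. Krtap10-4 had 28.0 and 12.2 CPM in cKO2 and cKO3, against 2.12 and 1.06 CPM in control2 and control3. Krtap12-1 had 12.7 and 6.98 CPM in cKO2 and cKO3, against 1.33 and 0.749 CPM in control2 and control3. For both genes cKO exceeded control by similar ratios in number 2 and in number 3, 13.2 and 11.5 for Krtap10-4 and 9.52 and 9.32 for Krtap12-1. Krtap16-1, on chromosome 11, also had a wide genotype gap, with 63.9 and 23.8 CPM in cKO2 and cKO3, against 4.78 and 3.22 CPM in control2 and control3. It varied with number too: number 2 was 2.69 times number 3 in cKO and 1.49 times in control.

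The cysteine-rich genes of chromosome 11 made up most of that class, 22 of 31 members, and varied with both genotype and number. Human proteins of subfamilies 1, 2, 3, 4 and 9 are known from the shaft cortex. Krtap3, with 3 genes, had 274 and 148 CPM in cKO2 and cKO3, against 67.8 and 22.0 CPM in control2 and control3. Krtap4, with 8 genes, had 241 and 145 CPM in cKO2 and cKO3, against 86.9 and 14.5 CPM in control2 and control3. Krtap1, with 3 genes, had 194 and 93.9 CPM in cKO2 and cKO3, against 50.2 and 8.46 CPM in control2 and control3. In all 3 subfamilies the groups did not overlap, yet control2 came closer to cKO3 than to control3 on the ratio scale: for Krtap4 cKO3 was 145 CPM beside 86.9 CPM in control2 and 14.5 CPM in control3. The cKO to control ratio of the means was 4.70 for Krtap3, 3.81 for Krtap4 and 4.92 for Krtap1, below the 15 of Krtap5, a difference that was not tested. Within the number 3 libraries the ratios were larger, 6.73 for Krtap3, 10.1 for Krtap4 and 11.1 for Krtap1.

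Named members of these subfamilies followed their sums. Krtap3-1 had 115 and 61.4 CPM in cKO2 and cKO3, against 26.3 and 6.21 CPM in control2 and control3. Krtap1-5 had 94.5 and 28.6 CPM in cKO2 and cKO3, against 26.0 and 2.82 CPM in control2 and control3, so that control2 nearly reached cKO3. Its log2 fold change for genotype was 2.09 ± 1.16 (SE), and its log2 ratio for number was 2.39 ± 0.40 (SE). The first error holds differences between numbers, as that fit had no term for them, so the errors cannot be compared. Krtap9-3 had 65.5 and 42.0 CPM in cKO2 and cKO3, against 17.6 and 3.83 CPM in control2 and control3. Krtap2-4 had 38.6 and 27.7 CPM in cKO2 and cKO3, against 13.6 and 2.91 CPM in control2 and control3. Over the 8 Krtap4 genes the log2 fold changes of genotype ran from 1.5 for Krtap4-13 to 2.18 for Krtap4-16, and 81.3% of the 50-base windows of Krtap4-13 also occur in another gene. Krtap4-1 had 55.5 and 30.9 CPM in cKO2 and cKO3, against 19.9 and 2.60 CPM in control2 and control3. None of these 5 genes reached an adjusted p of 0.05 in the edgeR quasi-likelihood tests of genotype alone or of the number. Krtap17-1, whose human counterpart is a cuticle protein, had 52.8 and 16.6 CPM in cKO2 and cKO3, against 6.90 and 2.73 CPM in control2 and control3. Krtap29-1 was far less abundant, with 3.31 and 1.25 CPM in cKO2 and cKO3, against 0.416 and 0.220 CPM in control2 and control3. Krtap31-1 showed no separation by genotype, with 2.16 and 0.597 CPM in cKO2 and cKO3, against 1.95 CPM in control2 and 0 counts in control3.

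Chromosome 16 holds 25 members, among them all 15 glycine-tyrosine-rich genes. In that class the ratios between numbers were larger than in the cysteine-rich class. Over the chromosome 16 members tested, the median log2 value was 3.27 for genotype and 2.43 for number. On chromosome 11 these medians were 2.09 and 1.46. A member was put in the glycine-tyrosine-rich class where at least 45% of its codons encode glycine or tyrosine, and in the cysteine-rich class where at least 20% of the rest's codons encode cysteine. The glycine-tyrosine-rich genes had 529.5 and 157 CPM in cKO2 and cKO3, against 118 and 6.96 CPM in control2 and control3. Number 2 was 3.36 times number 3 in cKO and 16.9 times in control, beside 1.81 and 4.03 times for the 31 cysteine-rich genes. The median log2 ratio of number 2 over number 3 was 2.73 over the glycine-tyrosine-rich members tested and 1.28 over the cysteine-rich ones, while the median log2 fold changes of genotype were 2.69 and 2.44. In the glycine-tyrosine-rich class 8 members had both cKO libraries above both control libraries and 7 had both number 2 libraries above both number 3 libraries. In the cysteine-rich class the counts were 28 and 3. Of all genes tested, 25.1% and 18.5% showed these orders. No cysteine-rich member lies on chromosome 16, so class and chromosome cannot be told apart here. Next below the cut-off came Krtap28-13, Krtap5-3 and Krtap28-10, with 42.0%, 39.3% and 38.7% glycine or tyrosine codons. They are classed as cysteine-rich, lie on other chromosomes and had log2 number ratios of 0.63, -0.52 and 0.68. The difference between classes was not tested, and class cut-offs were set with the values known.

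**Figure D3:**
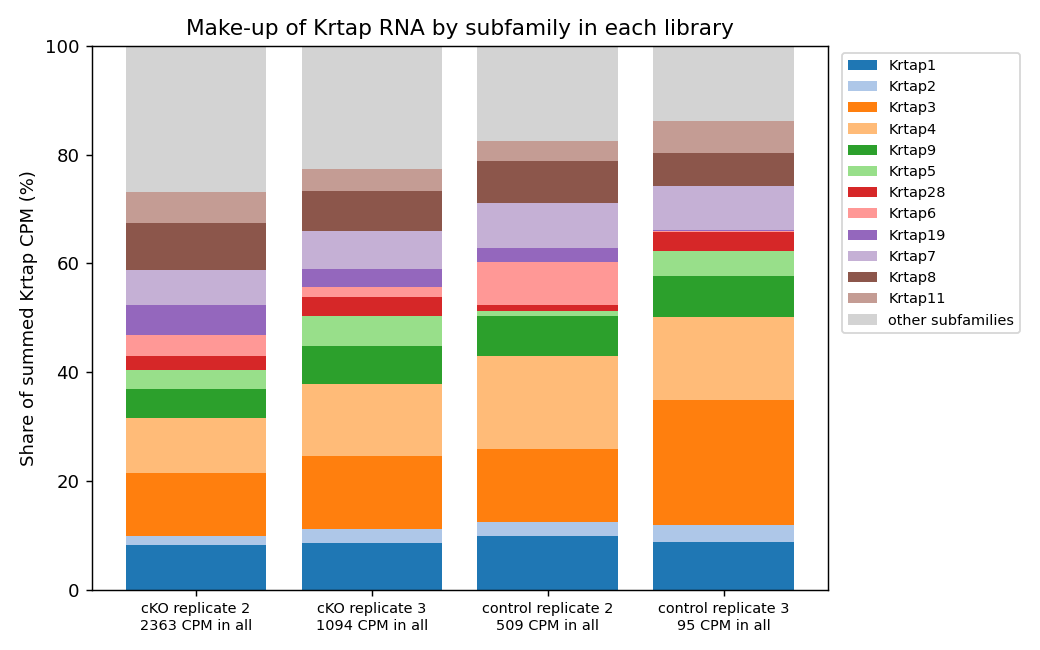
Stacked bars give the share of the summed Krtap CPM taken by each subfamily in each library, in percent, with cKO libraries left of control libraries. Krtap6 took 3.93% and 1.77% in cKO2 and cKO3, against 7.86% and 0.185% in control2 and control3, and Krtap3 took 11.6% and 13.5% in cKO2 and cKO3, against 13.3% and 23.0% in control2 and control3.

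As a share of all Krtap CPM, the glycine-tyrosine-rich genes took 22.4% and 14.4% in cKO2 and cKO3, against 23.2% and 7.30% in control2 and control3, so the larger shares were in the number 2 libraries of both genotypes. The cysteine-rich genes took 49.7% and 59.4% in cKO2 and cKO3, against 55.9% and 74.0% in control2 and control3. This share was higher in the number 3 library of each genotype and lower in cKO than in control within each number.

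Krtap6, with 4 genes, lay at the number end of the family. The subfamily had 92.9 and 19.3 CPM in cKO2 and cKO3, against 40.0 and 0.176 CPM in control2 and control3. In control3 those 0.176 CPM were 4 counts over 4 genes. Krtap6-5 had 49.2 and 8.41 CPM in cKO2 and cKO3, against 19.0 and 0.0441 CPM in control2 and control3, the last being 1 count. Its log2 fold change for genotype was 1.59 ± 1.90 (SE), smaller than its error, and its log2 ratio for number was 3.94 ± 1.08 (SE). These errors cannot be compared, because the genotype fit had no term for number while the number fit also held genotype. Without cKO2 the genotype value of Krtap6-5 became -0.19. Krtap6-3 had 14 and 1 counts in cKO2 and cKO3, against 109 and 0 counts in control2 and control3. Its genotype log2 fold change of -2.26 ± 2.07 (SE) had an adjusted p of 0.610 in the edgeR test and turned to 6.14 without control2. Krtap20-2 showed the same lean to control2, with 7 and 3 counts in cKO2 and cKO3, against 90 and 0 counts in control2 and control3.

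The 7 glycine-tyrosine-rich members ordered by number are neighbours. In the order of the GENCODE M21 annotation of chromosome 16, Krtap22-2, Krtap6-1, Krtap6-5, Krtap6-3, Krtap20-2, Krtap21-1 and Krtap6-2 follow each other with no other Krtap row between them. Krtap21-1 had 28.9 and 6.68 CPM in cKO2 and cKO3, against 7.73 and 0.0441 CPM in control2 and control3. Krtap22-2 had 33.7 and 9.73 CPM in cKO2 and cKO3, against 11.7 and 0.881 CPM in control2 and control3. That control2 exceeded cKO3 for every gene of this run follows from the order by which they were picked. The next rows on either side, Krtap16-3 and Krtap8-1, had both cKO libraries above both control libraries. This run was noticed after the values were seen and has no test.

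Krtap19, with 7 genes on chromosome 16, combined a wide genotype gap with a wide number gap. It had 132 and 35.5 CPM in cKO2 and cKO3, against 13.2 and 0.0881 CPM in control2 and control3. In 6 of its 7 genes both cKO libraries lay above both control libraries, beside 25.1% of all genes tested. The log2 fold changes of genotype of these 6 ran from 2.72 for Krtap19-9b to 5.42 for Krtap19-4. None of the 7 was called by the edgeR quasi-likelihood test of genotype alone, where 1.09% of all genes were called. In the authors' deposited table the FDR of Krtap19-4 was 2.23e-06. Krtap19-5, the most abundant, had 31.9 and 7.88 CPM in cKO2 and cKO3, against 3.62 and 0.0881 CPM in control2 and control3. Krtap19-2 had 337 and 119 counts in cKO2 and cKO3, against 28 and 0 counts in control2 and control3. With control3 at 0, cKO3 was at least 53.7-fold higher for Krtap19-2 and at least 70.9-fold higher for Krtap19-3, computed against 3 counts in control3. Krtap16-3, which shares its subfamily number with the cysteine-rich Krtap16-1 of chromosome 11 but is glycine-tyrosine-rich, had 44.4 and 5.67 CPM in cKO2 and cKO3, against 3.41 CPM in control2 and 0 counts in control3. The seventh Krtap19 row, Krtap19-9a, is annotated as a pseudogene in GENCODE M21.

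The remaining genes of chromosome 16 included the most abundant of the family. Per length, in the authors' FPKM, Krtap8-1 and Krtap7-1 had the highest means over the 4 libraries. Krtap8-1 had 350.4 and 134 FPKM in cKO2 and cKO3, against 69.5 and 10.1 FPKM in control2 and control3. Krtap7-1 had 242 and 119 FPKM in cKO2 and cKO3, against 69.0 and 12.6 FPKM in control2 and control3. Human proteins of these subfamilies belong to the cortex. Krtap15 had 135 and 71.5 CPM in cKO2 and cKO3, against 17.9 and 0.969 CPM in control2 and control3. Krtap14 had 67.8 and 40.3 CPM in cKO2 and cKO3, against 9.72 and 0.617 CPM in control2 and control3. These neighbours had modest number ratios in cKO, 1.88 and 1.68, and large ones in control, 18.5 and 15.8. Krtap13-1 had 76.7 and 27.7 CPM in cKO2 and cKO3, against 9.10 and 1.41 CPM in control2 and control3. Krtap24-1 had 42.4 and 10.1 CPM in cKO2 and cKO3, against 2.87 and 0.485 CPM in control2 and control3. Krtap26-1 had 36.3 and 13.5 CPM in cKO2 and cKO3, against 4.49 and 0.661 CPM in control2 and control3. Krtap27-1 was far lower, with 4.96 and 1.43 CPM in cKO2 and cKO3, against 0.374 and 0.0881 CPM in control2 and control3. For Krtap15, Krtap14, Krtap13-1, Krtap24-1, Krtap26-1 and Krtap27-1 the groups did not overlap, and no adjusted p was under 0.05 in the edgeR quasi-likelihood tests of genotype alone or of the number.

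Most promoters of the family hold the TATAAA motif, and 3 are shown because their genes stand for the patterns above: Krtap5-2 for genotype, Krtap6-5 for number and Krtap11-1 for both. RefSeq promoters on GRCm38.p6, 250 bases before the start and 50 after, were matched for 51 members. The capitals mark TATAAA or its reverse complement TTTATA, and CTTTGAA or its reverse complement TTCAAAG, a sequence that LEF1 and related factors are known to bind. All 3 are on the minus strand and are written 5′ to 3′ along the gene. They lie at chr7:142175956-142176255, chr16:89047850-89048149 and chr16:89571134-89571433.
Krtap5-2: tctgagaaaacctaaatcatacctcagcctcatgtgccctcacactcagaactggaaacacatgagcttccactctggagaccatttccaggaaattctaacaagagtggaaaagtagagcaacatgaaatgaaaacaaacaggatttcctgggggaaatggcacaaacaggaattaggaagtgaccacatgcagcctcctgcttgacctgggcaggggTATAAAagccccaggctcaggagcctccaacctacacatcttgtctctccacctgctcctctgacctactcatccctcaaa
Krtap6-5: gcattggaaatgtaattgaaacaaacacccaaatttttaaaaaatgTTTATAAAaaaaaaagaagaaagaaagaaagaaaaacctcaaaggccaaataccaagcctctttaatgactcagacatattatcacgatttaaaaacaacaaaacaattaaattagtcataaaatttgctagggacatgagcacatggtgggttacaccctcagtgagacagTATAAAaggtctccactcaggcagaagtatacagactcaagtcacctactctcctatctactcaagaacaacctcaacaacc
Krtap11-1: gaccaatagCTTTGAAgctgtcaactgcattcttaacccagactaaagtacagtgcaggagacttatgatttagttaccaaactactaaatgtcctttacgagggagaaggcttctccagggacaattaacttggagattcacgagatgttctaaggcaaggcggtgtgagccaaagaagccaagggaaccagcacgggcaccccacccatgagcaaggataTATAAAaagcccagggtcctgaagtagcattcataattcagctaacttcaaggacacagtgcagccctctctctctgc

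TATAAA, searched on both strands, occurred in 42 of the 51 promoters (82.4%), against 13.6% of all 32851 promoters of the same length. Its first base lay from -36 to -26 relative to the start in 29 of the 51, against 2.10% of all promoters. In the printed promoters the TATAAA nearest the start began at -31 for Krtap5-2, -32 for Krtap6-5 and -28 for Krtap11-1. CTTTGAA, searched on both strands, occurred in 9 of the 51 promoters (17.6%), against 5.14% of all promoters. Among the promoters matched, TATAAA stood in 31 of 40 of members with both cKO libraries above both control libraries and in 10 of 10 of members with both number 2 libraries above both number 3 libraries. CTTTGAA stood in 9 of the 40 and in 0 of the 10. These matches describe the letters in the window, and the difference between the orders was not tested.

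The other structural genes of the follicle were set beside the family. The hair shaft keratins, the filament proteins that Krtap proteins are bound to, had 1734 and 666 CPM summed over 14 genes in cKO2 and cKO3, against 269 and 71.3 CPM in control2 and control3. None of the 14 was called by edgeR's quasi-likelihood test of genotype alone, where 1.09% of all genes were called. In that test 11 had an unadjusted p under 0.05, where 20.0% of all genes did. The median log2 fold change of the 14 was 2.80, with a median log2 ratio for number of 1.71. Krt86 had 207 and 101 CPM in cKO2 and cKO3, against 38.3 and 12.2 CPM in control2 and control3. Krtap CPM divided by shaft keratin CPM was 1.36 and 1.64 in cKO2 and cKO3, against 1.89 and 1.34 in control2 and control3. The groups overlapped in this ratio. The cKO mean was 0.930 times the control mean, 0.719 times within the number 2 libraries and 1.23 times within the number 3 libraries, so its direction differed between the numbers. For Krtap5 alone the same quotient was 0.0483 and 0.0917 in cKO2 and cKO3, against 0.0196 and 0.0618 in control2 and control3, higher in cKO within each number. For Krtap6 alone it was 0.0536 and 0.0290 in cKO2 and cKO3, against 0.149 and 0.00247 in control2 and control3.

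The 9 inner root sheath genes, which encode keratins and trichohyalin of the layer that moulds the shaft, had 8639 and 2315 CPM in cKO2 and cKO3, against 1704 and 215 CPM in control2 and control3. Their median log2 values were 2.39 for genotype and 2.67 for number. By edgeR's quasi-likelihood test of genotype alone 0 were called, where 1.09% of all genes were. At an unadjusted p under 0.05 the count was 0, beside 20.0% of all genes. The 10 shaft modifying and shaft-associated genes had 578 and 666 CPM in cKO2 and cKO3, against 160 and 109 CPM in control2 and control3. In that list number 2 was the higher library in both genotypes for 5 of the 9 genes tested, beside 34.8% of all genes. Tgm3, a transglutaminase that crosslinks shaft and sheath proteins, went the other way in both genotypes. It had 82.3 and 375 CPM in cKO2 and cKO3, against 5.69 and 8.81 CPM in control2 and control3. Dsc2 went the other way in cKO, and Selenbp1 and Lipk did so in control. Lipk was also lower in both cKO libraries than in both control libraries (log2 fold change -0.94 ± 0.27, SE). The 11 genes listed as hair matrix transcription factors had 766 and 377 CPM in cKO2 and cKO3, against 654 and 433 CPM in control2 and control3. Their ratio of group means was 1.05, beside 5.72 for the Krtap rows, and their median log2 fold change was 0.74, a difference from the Krtap rows that was not tested. Members lay on both sides: Hoxc13, Foxn1 and Msx2 had log2 fold changes of 1.07, 1.05 and 1.11, and Gata3 and Foxq1 of -1.34 and -1.74. Of the genes tested in these lists and in the proliferation list, 0 of 55 were called by edgeR's quasi-likelihood test of genotype alone, and DESeq2 called 18. Of all genes, edgeR called 1.09% in either direction, and DESeq2 called 6.14% higher. That DESeq2 share leaves out genes called lower, whereas the 18 were counted in either direction, so the comparison is uneven.

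**Figure D4:**
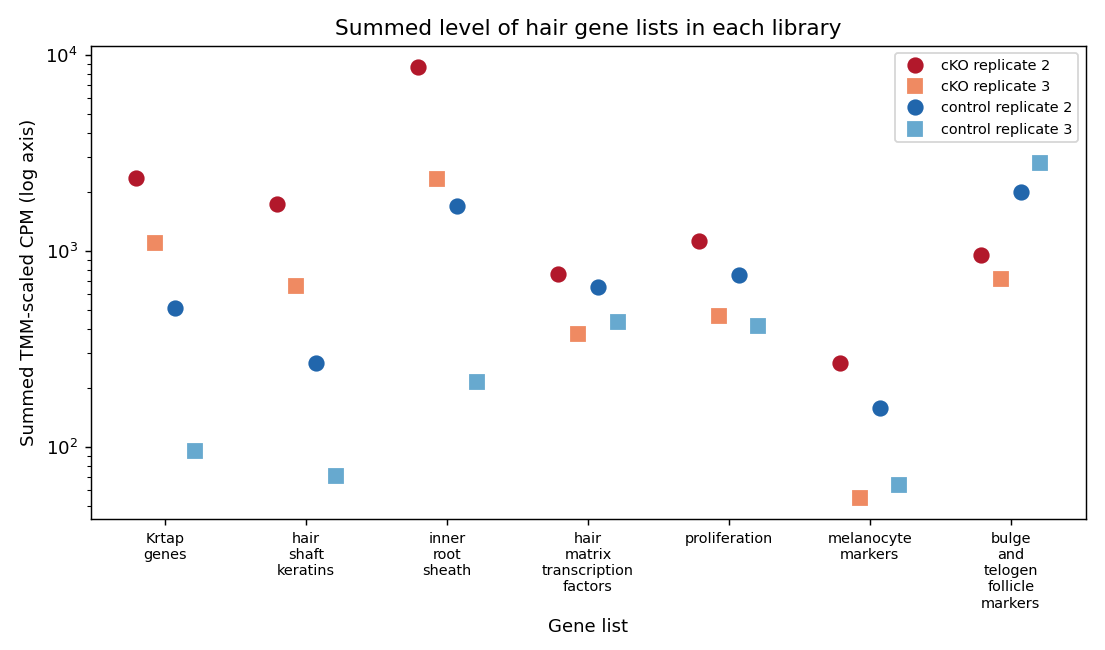
Summed TMM-scaled CPM (log axis) of the Krtap rows and of 6 other gene lists in the 4 libraries, with cKO libraries left of control libraries. Shaft keratins had the same order of libraries as the Krtap rows, with 1734 and 666 CPM in cKO2 and cKO3 against 269 and 71.3 CPM in control2 and control3, while the bulge and telogen list, most of it Krt15 in control skin, had 950 and 717 CPM in cKO2 and cKO3 against 2005 and 2815 CPM in control2 and control3.

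Summed markers of other cells were also ordered by genotype, by number or by both. Bulge and telogen follicle markers, 8 of 8 tested, had 950 and 717 CPM in cKO2 and cKO3, against 2005 and 2815 CPM in control2 and control3. Krt15, a keratin of the bulge and basal layer, made up much of this sum, with 553 and 266 CPM in cKO2 and cKO3, against 1487 and 2231 CPM in control2 and control3. The other 7 genes together had 397 and 450.3 CPM in cKO2 and cKO3, against 518 and 584 CPM in control2 and control3, a ratio of 0.769 between the group means beside 0.346 with Krt15. Of the 8 genes, 4 had both cKO libraries below both control libraries, 3 (Lgr5, Sox9 and Lhx2) had both number 2 libraries above both number 3 libraries and 1 (Cd34) had them below. Of all genes tested, 27.7%, 18.5% and 16.7% showed these orders. The 6 sebocyte markers had 1613 and 1127 CPM in cKO2 and cKO3, against 3799 and 4791 CPM in control2 and control3. Among them Scd3, a fatty acid desaturase, was called lower in cKO skin, with 7.32 and 2.86 CPM in cKO2 and cKO3, against 165 and 136 CPM in control2 and control3 (log2 fold change -4.88 ± 0.51, SE; adjusted p 0.0472 in edgeR's quasi-likelihood test). Interfollicular keratinocyte markers had 32272 and 39471 CPM in cKO2 and cKO3, against 17981 and 16753 CPM in control2 and control3. Of these 6 genes, 3 (Krt14, Krt1 and Krt10) had both cKO libraries above both control libraries, beside 25.1% of all genes tested. Krt5 and Lor had log2 fold changes of -0.02 and -0.30, and Krt2 showed neither order. Proliferation genes, 12 of 12, were higher in both number 2 libraries than in both number 3 libraries, an order that 18.5% of all genes tested showed. Summed, the 12 had 1121 and 464 CPM in cKO2 and cKO3, against 750 and 415 CPM in control2 and control3. Melanocyte markers, most of them pigment genes active in growing follicles, had 267 and 55.0 CPM in cKO2 and cKO3, against 157 and 63.9 CPM in control2 and control3. Of the 8 markers, 7 had both number 2 libraries above both number 3 libraries, beside 18.5% of all genes tested. Mitf showed neither order, with 34.1 and 25.1 CPM in cKO2 and cKO3, against 31.7 and 35.0 CPM in control2 and control3. It made up much of the melanocyte sum in the number 3 libraries. Skeletal muscle markers ran against the number pattern, lowest in cKO2, with 1861 and 11165 CPM in cKO2 and cKO3, against 7978 and 12171 CPM in control2 and control3. Fibroblast markers had 18768 and 11601 CPM in cKO2 and cKO3, against 6884 and 5940 CPM in control2 and control3. In 4 of these 5 genes both cKO libraries lay above both control libraries, while Dcn had both number 2 libraries below both number 3 libraries. Adipocyte markers had 386 and 350.5 CPM in cKO2 and cKO3, against 466 and 696 CPM in control2 and control3. No marker of these lists was at 0 in any library. The part of these cell types in the Krtap differences was not tested.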

How the data were processed

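The deposited table gives, for 4 libraries of mouse skin RNA (TruSeq RNA kit with poly(A) selection, per the labels' protocols), an expected count for each gene as whole numbers, an FPKM value and the authors' own comparison as a log2 fold change, a p-value and an FDR. The submitters' processing notes name RSEM, edgeR and mm8 without versions; no aligner is named in the labels. RSEM shares reads between similar genes, so values of near-identical Krtap copies are uncertain. Of the table, 4 emptied lines were not analysed here.

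The deposited counts were fitted in R 4.3.3 with edgeR 4.0.16 (filterByExpr, TMM, quasi-likelihood test, Benjamini-Hochberg adjustment over 17440 genes, threshold 0.05). Genotype was fitted without a block, and the number in the titles was fitted together with genotype. Alternatives used DESeq2 1.42.0, limma 3.58.1 on counts and on log2(FPKM + 1) and log2(FPKM + 0.1), edgeR's exact test, other scalings and filters, a block on the number and fits leaving out each library. The fits were tested on simulated data, where they recovered most large changes with the right sign but a larger share of their calls was false than the threshold allows, so calls with an adjusted p just under 0.05 are weak. The simulated genotype data held no difference between numbers and took their spread from the fit of genotype and number together. The share recovered there therefore does not carry over to the genotype fit reported here. Codon shares came from GENCODE M21 coding sequences and promoters from RefSeq on GRCm38.p6; no coordinate of the deposited build was used. Named members were, in each subfamily, the most abundant, those called, the 4 smallest p-values in each direction of each comparison and the 3 most abundant of each library order; of other lists, the 2 most abundant genes were considered. Other members are named where a subfamily or a neighbourhood is described, and were chosen after their values were seen. The members and lists were chosen with earlier results of these data known. Intervals between libraries rest on 2 per group, and a count of 0 allows up to 3 counts, for counting error only.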

Additional observations from a re-analysis of the deposited data

Results flagged for a closer look

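The table also holds 40 rows that the annotation describes as keratin-associated proteins but whose names do not start with Krtap. Their RNA was detected, at a summed level of 427 CPM in cKO2 and 217 CPM in cKO3, against 112 CPM in control2 and 22.3 CPM in control3, so both cKO libraries lay above both control libraries. Of these rows, 33 had counts and 27 were tested, and edgeR's quasi-likelihood test called 0 of them for genotype, where 1.09% of all genes were called. In 21 rows both cKO libraries were above both control libraries, in 9 both number 2 libraries were above both number 3 libraries, 3 showed neither order and 7 had 0 counts throughout. Of all genes tested, 25.1% showed the first order and 18.5% the second.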

How the results depend on the processing

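The number of Krtap genes called for genotype, 3 with the fit reported, depended on the method, while the median log2 fold change of the members tested stayed positive under each alternative run, between 1.84 and 4.12. The count was 5 with library size alone, 10 with only all-zero genes removed, 29 with DESeq2, 25 with edgeR's exact test, 7 on log2(FPKM + 1) and 6 on log2(FPKM + 0.1), and it ran from 0 to 12 when a library was left out. For all genes, 190 called with the fit reported, it was 883 with only all-zero genes removed, 1864 with DESeq2, 1780 with edgeR's exact test, 383 on log2(FPKM + 1) and 295 on log2(FPKM + 0.1), and 0 to 1664 with a library left out. For the other hair genes, 0 of 55 called, it was 2 with only all-zero genes removed, 18 with DESeq2, 15 with the exact test and 0 to 5 with a library left out. For the number comparison, DESeq2 called 22 members and 287 genes, and removing only all-zero genes gave 24 and 367; no fit without a library could be made there, since 3 libraries leave no residual degrees of freedom. The ratio of summed Krtap CPM ran from 3.40 to 18.1 with a library left out. Adding the 40 rows described as keratin-associated but not named Krtap, an alternative chosen after seeing the data, gave 5.55 for that ratio and 0.903 for the ratio of Krtap to shaft keratin CPM. The ratio of Krtap to shaft keratin CPM, 0.930 over the group means, was 0.719 in the number 2 libraries and 1.23 in the number 3 libraries.

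With the number as a replicate block, 30 Krtap genes, 28 other hair genes and 1177 of all genes were called. The same-numbered libraries had correlated deviations across genes (r = 0.414, a description), but the labels give no pairing and there are only 2 pairs, so the numbers were treated as numbers. Of 390 values for the 30 named Krtap genes tested, 4 changed sign, each with a library left out. With a library left out, the log2 fold change of genotype ran from -0.72 to 7.67 for Krtap31-1 (negative without cKO2, and -0.50 without control3), from -0.19 to 9.15 for Krtap6-5 (negative without cKO2) and from -5.12 to 6.14 for Krtap6-3 (positive without control2). It ran from -0.37 to 0.90 for Mki67, from -0.29 to 1.02 for Top2a, from -1.61 to 1.92 for Dct, from -0.65 to 0.25 for Cd34, from -2.80 to 0.61 for Myh4, from -0.58 to 0.54 for Cux1, from -0.41 to 0.037 for Mitf and from -0.26 to 0.062 for Ppp6c. The cause of these changes was not tested. Where a library is left out, the lone library of its group is assumed to vary like the others. Control3, with 2165 Krtap counts in 22334208 and 12 members at 0, had too few counts of the least abundant members to give their ratios closely.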

Other observations

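Among those 40 rows, a few were found almost only in control2, as Krtap20-2 and Krtap6-3 were; they were picked after their values were seen. Gm6358 had 2 and 0 counts in cKO2 and cKO3, against 108 and 0 counts in control2 and control3. Gm10061 had 8 and 4 counts in cKO2 and cKO3, against 78 and 0 counts in control2 and control3. Gm7735 had 1 and 0 counts in cKO2 and cKO3, against 37 and 0 counts in control2 and control3. Gm9789 had 0 counts in both cKO libraries, against 21 and 0 counts in control2 and control3. Gm3233, a more abundant row, had 39.3 and 14.6 CPM in cKO2 and cKO3, against 1.75 and 1.45 CPM in control2 and control3, with an adjusted p of 0.0601 in edgeR's quasi-likelihood test.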
